A study of Mus musculus with 4 samples.

Results

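Membrane trafficking genes of the secretory and endosomal routes were examined in mouse pyloric stomach with and without Lgr5-CreER, a recombinase that deletes floxed alleles of the Hippo pathway kinase genes Lats1 and Lats2. Members were chosen by name: every row of the deposited table whose GENCODE symbol begins with a stem of the translocon, the COPI and COPII coats, Rab and ARF GTPases, SNAREs, synaptotagmins, exocyst, adaptor complexes, sorting nexins, VPS or CHMP proteins and related families. The rule found 78 of 2701 rows, 76 of them protein-coding genes, out of 406 protein-coding symbols of these families in the annotation. The table lists 20.6% of the 13137 genes that the authors were inferred to have tested, those with an adjusted p of at most 0.05 by the authors' own test, so a member is in it because it passed that test. The members nearest to the threshold were Vps54, Syt7 and Chmp4b, at 0.049, 0.0461 and 0.0461 in the authors' deposited table, and symbols outside the table were not analysed here.

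RNA came from cryosections of the pylorus of C57BL/6 mice (stomach, labelled pyloric epithelium), 2 libraries per group. WT mice carried Lats1fl/fl;Lats2fl/fl without Cre. Lats1/2iΔLgr5 mice carried Lats1fl/fl;Lats2fl/fl;Lgr5-CreER, a tamoxifen-activated recombinase expressed from the stem cell gene Lgr5. Both groups therefore share the floxed alleles, and both were taken 8 weeks after tamoxifen. The age of the mice was not given in the sources used here, nor whether a library is 1 mouse or a pool, and p-values measure the spread between these libraries. Recombination starts in Lgr5-positive cells and reaches other cells as their progeny, so a Lats1/2iΔLgr5 library can mix recombined and unrecombined cells. In such bulk tissue, fewer cells of a type and less RNA per cell cannot be told apart.

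Secreted and membrane proteins enter the endoplasmic reticulum (ER) through the translocon, leave in COPII vesicles, are sorted in the Golgi and reach the cell surface in carriers or storage granules. Rab and ARF GTPases mark each membrane, tethers and SNARE proteins join a vesicle to its target, and clathrin adaptors, retromer and ESCRT proteins sort what is taken up again. Gastric surface and gland cells are professional secretors that store mucins and other products in granules, and the GTPases RAB27A and RAB27B with their effectors bring such granules to the plasma membrane.

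The listed rows held from 13413629 to 17689207 counts per library, and levels are counts divided by the authors' size factors (normalized counts). Lats1 had 2152 and 1974 normalized counts in libraries WT 1 and WT 2 and 942.5 and 1129 in Lats1/2iΔLgr5 1 and Lats1/2iΔLgr5 2, lower in both Lats1/2iΔLgr5 libraries. Its log2 fold change was -0.99 ± 0.17 (SE). Lats2 was not among the listed rows. Of the epithelial markers, Cdh1, Krt8, Krt19 and Cldn18 were listed and Epcam and Krt18 were not, and their summed level was 545000 and 672017 in WT and 385912 and 437569 in Lats1/2iΔLgr5.

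The listed trafficking genes were lower in the Lats1/2iΔLgr5 pylorus almost throughout. On DESeq2 size factors from the listed rows, though, 4 of them moved just above 0. On those factors 1524 of all 2701 rows were lower, against 1543 on the authors' size factors. Of the 78 genes, 73 fell and 5 rose by the authors' deposited table, whereas over all rows 57.1% fell and 42.9% rose. The falls were modest and alike in size, with a median WT to Lats1/2iΔLgr5 ratio of 1.53 and middle 50% of log2 fold changes from -0.75 to -0.48 (edgeR, authors' size factors). Over all rows that fell, the median ratio was 1.66. In the 73 genes that fell, both Lats1/2iΔLgr5 libraries lay below both WT libraries, and in the 5 that rose both lay above. Such separation was also seen in 57.1% and 42.9% of all rows, downward and upward.

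**Figure D1:**
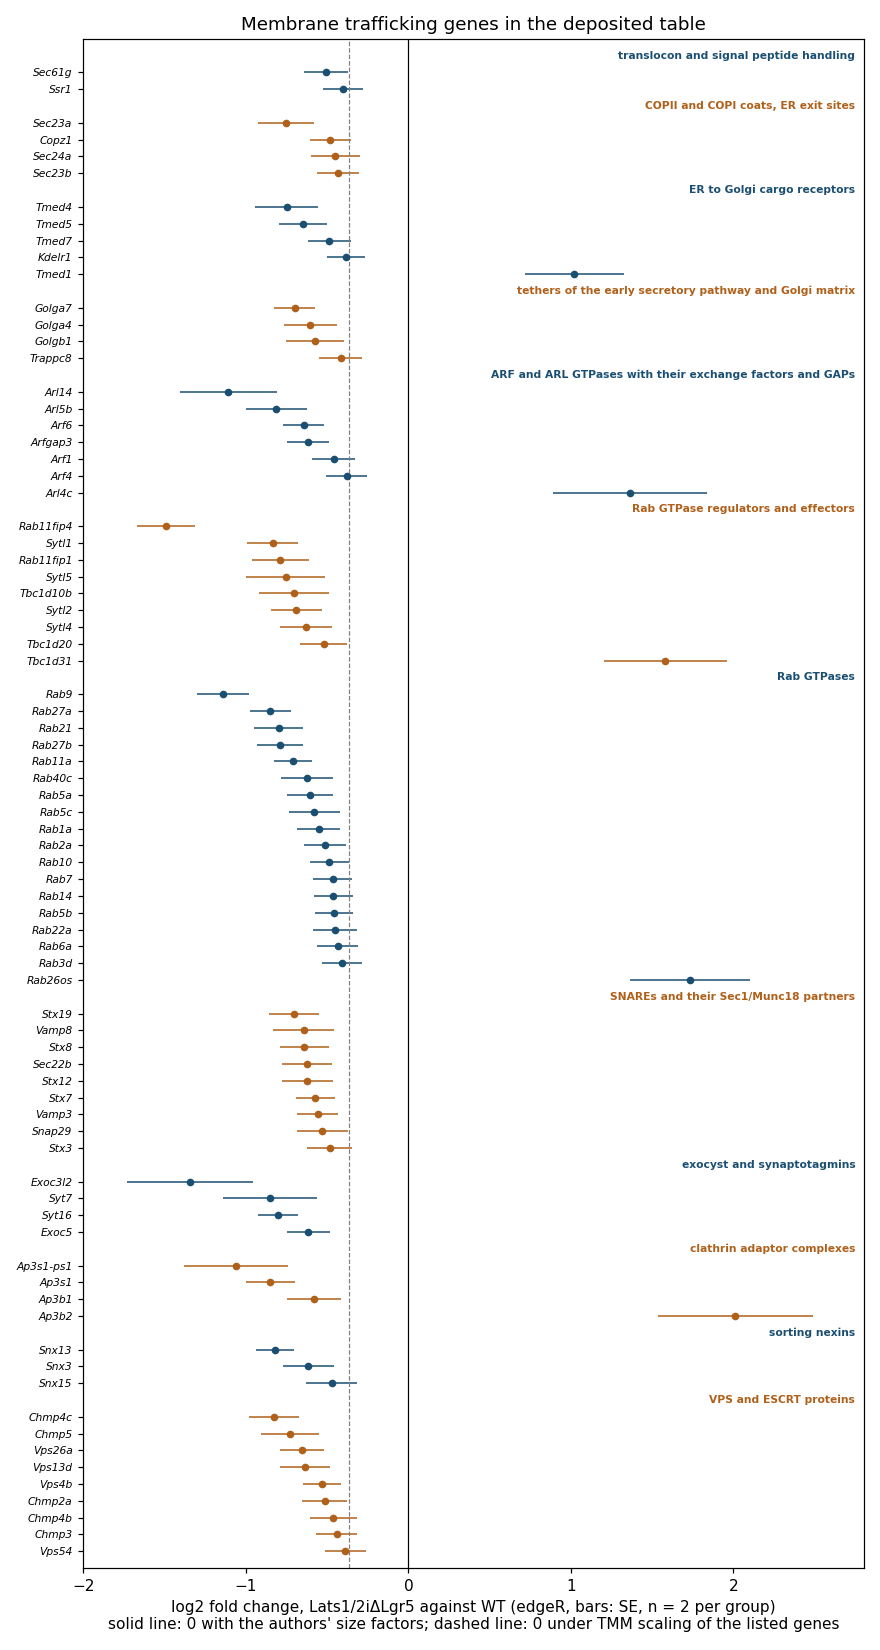
Log2 fold change (x axis) of each of the 78 trafficking genes (rows, grouped by role), Lats1/2iΔLgr5 against WT, from edgeR with the authors' size factors; points are estimates and bars standard errors, 2 libraries per group. Falls cluster between about the dashed line, where 0 lies under TMM scaling, and -1, while Rab11fip4 reaches -1.49 and Tmed1, Arl4c, Tbc1d31, Rab26os and Ap3b2 lie to the right; under DESeq2 size factors computed from the listed rows Ssr1, Kdelr1, Arf4 and Vps54 moved just above 0.

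The direction of a listed row went with its expression level. In the highest quartile of the authors' base mean (above 3628 normalized counts, not divided by gene length) 93.0% of all rows were lower, beside 38 of 38 trafficking genes. In the third quartile the values were 78.4% and 26 of 26, in the second 34.7% and 7 of 7, and in the lowest 22.5% and 2 of 7. Trafficking genes had a median base mean of 3525 against 1213 for all rows. The summed normalized counts of the 78 genes were 407023 and 434609 in WT and 282466 and 268380 in Lats1/2iΔLgr5. As a share of all listed normalized counts they made up 2.25% and 2.23% in WT and 2.33% and 2.41% in Lats1/2iΔLgr5; the sum of all listed rows, which the most abundant genes dominate, thus fell about as much. The part of level in the direction of the members was not tested.

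**Figure D2:**
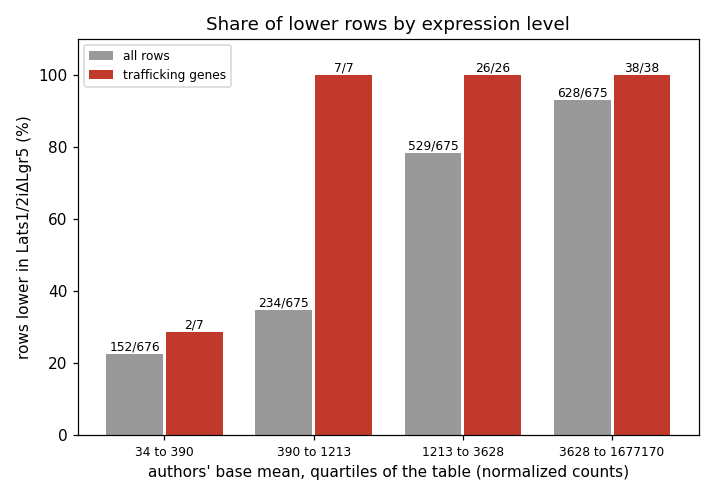
Percentage of rows lower in Lats1/2iΔLgr5 (y axis) in each quartile of the authors' base mean (x axis, normalized counts), for all rows (grey) and trafficking genes (red), with counts above the bars. The share of all rows rises from 22.5% to 93.0% with level, and 64 of the 78 trafficking genes lie in the upper 2 quartiles, all of them lower.

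The calls depend on how the libraries are scaled. With edgeR's quasi-likelihood test on the authors' size factors, 73 members passed lower and 5 higher at an adjusted p of 0.05, beside 57.1% and 42.8% of all rows; nearly every row passed this fit, all being past the authors' threshold already. TMM factors computed from the listed rows shift log2 fold changes up by a median of 0.36. Under them 73 members were still below 0, as were 1542 of all 2701 rows, against 1543 on the authors' size factors. Then 11 members passed lower (18.2% of all rows) and 5 higher (42.8%). Those 11 were Rab11fip4, Sytl1, Rab27a, Rab9, Rab11a, Rab27b, Rab21, Syt16, Ap3s1, Snx13 and Chmp4c. DESeq2 size factors from the listed rows shift the log2 fold changes by 0.41, with 9 lower (16.0% of all rows) and 5 higher (42.8%). Both kinds of factors take most listed rows as unchanged, which a table of called genes is not. Passing or failing under them therefore does not settle whether a gene changed. A replicate block gave 66 lower (53.8% of all rows) and 5 higher (40.2%). Without Lats1/2iΔLgr5 2 no member passed in edgeR, beside 0.0370% of all rows lower and 0.148% higher. The median log2 fold change in that fit was -0.54 for the members and -0.46 over all rows. It leaves 1 Lats1/2iΔLgr5 library, so passing or failing there does not set the members apart from other rows. Without Lats1/2iΔLgr5 1 the members that passed were 29, all lower, beside 32.4% of all rows lower and 23.2% higher. All 78 kept their direction without any single library. So did nearly all rows of this selected table: 1542 or 1543 of 2701 were lower in each such fit, against 1543 with all libraries.

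**Figure D3:**
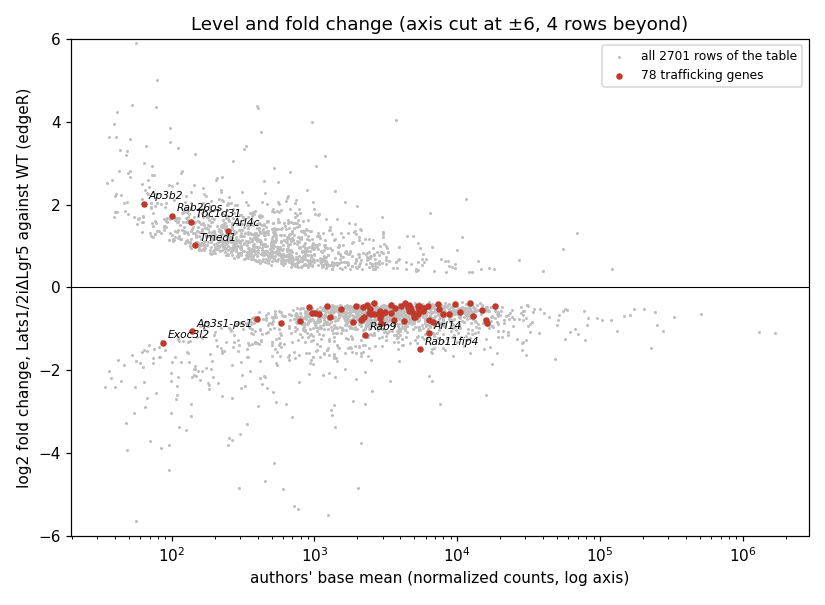
Authors' base mean (x axis, normalized counts, log axis) against the edgeR log2 fold change of Lats1/2iΔLgr5 over WT (y axis) for all 2701 rows (grey) and the 78 trafficking genes (red). Most trafficking genes sit at high level just below 0; the 5 that rose lie toward the left, and no row lies near 0 because the table lists only genes past the authors' threshold.

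Listed cell type markers moved in both directions. Of 11 surface mucous cell markers 7 were listed and all fell, with summed levels of 4525960 and 4811360 in WT and 2446440 and 1997750 in Lats1/2iΔLgr5. All 6 cycling cell markers were listed and rose, from 5353 and 8397 to 16150 and 18150 summed. Of 7 parietal cell markers Kcnj15 and Slc9a4 fell, of 12 enteroendocrine markers Ghrl and Sst rose (63.1 and 72.8 summed in WT, 317.8 and 1625 in Lats1/2iΔLgr5), and of 5 tuft cell markers Avil fell. Of 9 pancreatic acinar markers Cela1 and Cela2a were listed, 1 higher and 1 lower. Of 6 fibroblast markers Col3a1 and Col1a2 fell, from 9237 and 12196 summed to 6867 and 5752, and of 4 endothelial markers Kdr fell. None of the markers of chief cells, gland mucous cells, smooth muscle, immune cells, red cells or neurons and glia was listed. The part of these cell populations in the trafficking values was not tested.

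Entry into the ER was represented by 2 of 12 annotated genes. Sec61g, the small gamma subunit of the Sec61 channel, had 4022 and 4576 normalized counts in libraries WT 1 and WT 2 and 3177 and 2875 in Lats1/2iΔLgr5 1 and Lats1/2iΔLgr5 2, a log2 fold change of -0.51 ± 0.14 (SE). Ssr1, which encodes the alpha subunit of the translocon-associated protein complex, was at 8619 and 8119 in WT and 6529 and 6151 in Lats1/2iΔLgr5, or -0.40 ± 0.12. Both fell, with groups apart, but on DESeq2 factors from the listed rows Ssr1 was at 0.0030 (log2). These subunits are needed by every secretory cell.

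Of 20 annotated coat and ER exit genes 4 were listed, and all 4 fell, beside 57.1% of all rows. All 4 lie in the upper 2 quartiles of base mean, where 85.7% of rows were lower. Sec23a and Sec23b encode alternative inner shells of the COPII coat, and Sec24a a cargo-binding partner. Sec23a (chromosome 12, 58958383 to 59012017, with all positions on GRCm38) was measured at 2384 and 2973 normalized counts in libraries WT 1 and WT 2 and 1689 and 1491 in Lats1/2iΔLgr5 1 and Lats1/2iΔLgr5 2, 1.68-fold higher in WT, and its adjusted p in the authors' deposited table was 0.00285. Its paralog Sec23b was at 3723 and 4203 in WT and 2915 and 2958 in Lats1/2iΔLgr5, a smaller ratio of 1.35. Sec24a had a ratio of 1.37. Copz1, the zeta subunit of the COPI coat that returns material from the Golgi to the ER, was at 5539.9 and 5304 in WT and 4074 and 3705 in Lats1/2iΔLgr5. None of the 4 passed under TMM scaling.

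Cargo receptors between the ER and the Golgi went both ways. The p24 proteins encoded by Tmed4, Tmed5 and Tmed7 cycle in COPI and COPII vesicles, and all 3 fell. Tmed5 had 3089 and 3019 normalized counts in libraries WT 1 and WT 2 and 1770.1 and 2125 in Lats1/2iΔLgr5 1 and Lats1/2iΔLgr5 2, Tmed4 was at 3414 and 3759.9 in WT and 2488 and 1782 in Lats1/2iΔLgr5 and Tmed7 was at 7275 and 6410.2 in WT and 5057 and 4708 in Lats1/2iΔLgr5. The 2 Lats1/2iΔLgr5 libraries of Tmed4 differed most, yet both lay below WT. Tmed1, another p24 gene, rose from 90.9 and 100.4 to 180.2 and 207.9, 2.03-fold, and reached 127.7 ± 12.9 normalized counts per kilobase of exon (SD, n = 2) against 253.3 ± 32.7 for Tmed5. Its exons share 13.6% of their bases with Dnm2 on the opposite strand, and use of strand in the counting is not stated in any source. Dnm2 itself was lower, at 7231 and 9315 in WT and 5440 and 6112 in Lats1/2iΔLgr5. The part of Dnm2 reads in the Tmed1 counts was not tested. Kdelr1, the receptor that returns KDEL-tagged chaperones to the ER, fell 1.30-fold. It was at 0.022 on the log2 scale under DESeq2 factors from the listed rows.

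Golgi tethers and matrix genes had 4 of 31 symbols listed, and all fell, beside 57.1% of all rows. They lie in the upper 2 quartiles of base mean, where 85.7% of rows were lower. Golga7, which pairs with a palmitoyltransferase of Ras proteins, had 3538 and 3527 normalized counts in libraries WT 1 and WT 2 and 2241 and 2107 in Lats1/2iΔLgr5 1 and Lats1/2iΔLgr5 2. Both Lats1/2iΔLgr5 libraries lay far below the nearly equal WT libraries, and its log2 fold change was -0.70 ± 0.13 (SE). Its adjusted p was 8.08e-05 in the authors' deposited table and, from edgeR, 0.0501 under TMM. Golga4, a trans-Golgi golgin, was at 11022 and 14040.2 in WT and 8651 and 7854 in Lats1/2iΔLgr5. Golgb1, which encodes giantin, was at 6325 and 6689 in WT and 5022 and 3705 in Lats1/2iΔLgr5, and its log2 fold change of -0.58 was -0.37 without Lats1/2iΔLgr5 2. Trappc8, a subunit of a TRAPP tether and Rab exchange complex, fell 1.33-fold. No COG subunit (of 8 annotated) was listed.

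ARF-family genes had 7 of 39 listed. Arf1, which recruits COPI and clathrin adaptors to the Golgi, and Arf4, its relative at the ER-Golgi border, fell 1.37-fold and 1.30-fold, Arf4 with a log2 fold change of 0.024 under DESeq2 factors from the listed rows. Arf6 acts at the plasma membrane and in endosomal recycling. Arf6 (chromosome 12, 69372150 to 69375979; 13.6% of its exon bases shared with Gm9887) had 11216 and 10192 normalized counts in libraries WT 1 and WT 2 and 6972 and 6736 in Lats1/2iΔLgr5 1 and Lats1/2iΔLgr5 2, a log2 fold change of -0.64 ± 0.13 (SE). In the authors' deposited table its adjusted p was 0.000248. Arfgap3, a GTPase-activating protein of the COPI cycle, was at 3259.6 and 3549 in WT and 2276 and 2166 in Lats1/2iΔLgr5. Arl5b, which brings the GARP tether to the trans-Golgi, was at 918.7 and 1085 in WT and 607.5 and 533.0 in Lats1/2iΔLgr5, and the GARP subunit Vps54 also fell (1.31-fold), except under DESeq2 factors from the listed rows (0.018). Arl14, known from vesicles that carry MHC class II, was at 6523 and 10740.3 in WT and 4755 and 3247 in Lats1/2iΔLgr5. WT 2 stood well above WT 1, and the log2 fold change of -1.11 was -0.71 without WT 2.

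Arl4c, a plasma membrane ARL that recruits ARF exchange factors, rose instead. It had 169.1 and 110.3 normalized counts in libraries WT 1 and WT 2 and 500.7 and 217.3 in Lats1/2iΔLgr5 1 and Lats1/2iΔLgr5 2. Lats1/2iΔLgr5 1 carried most of the difference: the log2 fold change of 1.36 was 0.64 without Lats1/2iΔLgr5 1, and its groups nonetheless did not overlap.

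Rab GTPases formed the largest group, with 17 of 60 annotated protein-coding genes listed. All 17 fell, beside 57.1% of all rows, and 78.4% and 93.0% of rows in the third and highest quartiles of base mean. They were below 0 under each scaling tried. Rab3d, at -0.41 (log2) on the authors' size factors, was at only -0.047 under TMM. DESeq2 factors from the listed rows shift values by a median of 0.41, about the size of its fall. Their ratios ran from 1.33 (Rab3d) to 2.20 (Rab9). Rab27a (chromosome 9, 73044854 to 73097629), which docks secretory granules and lysosome-related organelles at the plasma membrane, had 20137 and 21216 normalized counts in libraries WT 1 and WT 2 and 11502 and 11442 in Lats1/2iΔLgr5 1 and Lats1/2iΔLgr5 2. The Lats1/2iΔLgr5 libraries were nearly equal, and they lay 1.80-fold below WT (adjusted p 3.07e-08 in the authors' deposited table, 0.0137 from edgeR under TMM). Its paralog Rab27b was at 21323 and 19084 in WT and 12217 and 11146 in Lats1/2iΔLgr5, a fall of 1.73-fold. In both RAB27 genes the groups lay well apart.

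RAB27 effectors moved with them. Of 5 annotated synaptotagmin-like genes, whose products bind RAB27 and link granules to the plasma membrane, 4 were listed. All 4 fell, beside 57.1% of all rows. By base mean they lie in the second to highest quartiles, where 34.7% to 93.0% of rows were lower. Sytl1 had 2208 and 2576 normalized counts in libraries WT 1 and WT 2 and 1389.8 and 1292 in Lats1/2iΔLgr5 1 and Lats1/2iΔLgr5 2, a log2 fold change of -0.84 ± 0.16 (SE) that passed under TMM (edgeR adjusted p of 0.0292). Sytl2 was at 14160.2 and 17744 in WT and 9668 and 10118 in Lats1/2iΔLgr5. Sytl4 and Sytl5 had log2 fold changes of -0.63 ± 0.16 and -0.75 ± 0.24. Exph5, another RAB27 effector in the naming rule, was not among the listed rows. Outside the rule, Mlph, which couples RAB27A to myosin V, was at 21399 and 25008 in WT and 14308 and 15465 in Lats1/2iΔLgr5, and the epithelial myosin V gene Myo5c fell 1.51-fold. Rab3d, a GTPase of exocrine storage granules, was at 11152 and 10759 in WT and 8097 and 8419 in Lats1/2iΔLgr5 and did not pass under TMM (edgeR adjusted p of 0.71).

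**Figure D4:**
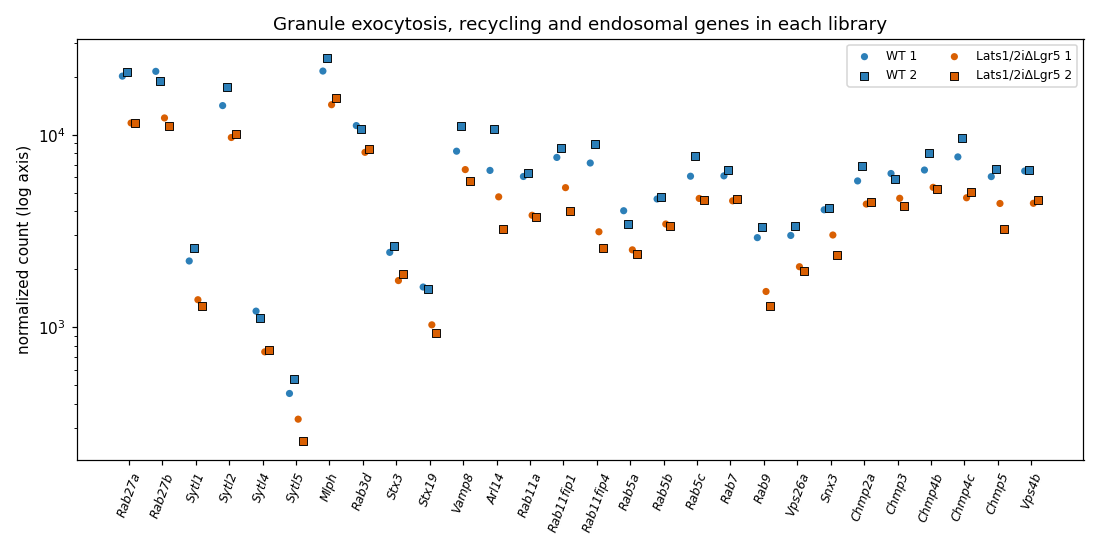
Normalized counts (y axis, log axis) of 28 genes of granule exocytosis, recycling and endosomal sorting (x axis) in each library; blue marks WT, orange Lats1/2iΔLgr5, circles replicate 1 and squares replicate 2. The genes were chosen among those that fell, so both orange points lie below both blue points in each, as in 57.1% of all rows, and WT 2 is high for Arl14 and Vamp8. On DESeq2 size factors from the listed rows these 28 genes also kept their direction, though the shift of 0.41 (log2) is about the size of the fall of Rab3d (-0.41).

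Rab11a and genes of its interacting proteins were lower as well. Rab11a, which marks apical recycling endosomes, had 6066 and 6298 normalized counts in libraries WT 1 and WT 2 and 3815 and 3752 in Lats1/2iΔLgr5 1 and Lats1/2iΔLgr5 2, 1.63-fold higher in WT. Its interacting proteins Rab11fip1 and Rab11fip4 were 2 of 5 annotated family members and both fell. Rab11fip4 (chromosome 11, 79591212 to 79698023) was at 7127 and 8966 in WT and 3132 and 2594 in Lats1/2iΔLgr5. This was the steepest fall of the 78 genes by log2 fold change, -1.49 ± 0.18 (SE). Its adjusted p was 2.56e-10 in the authors' deposited table and 0.00695 from edgeR under TMM. Rab11fip1 was at 7618 and 8506 in WT and 5308 and 4025 in Lats1/2iΔLgr5 and had an edgeR adjusted p of 0.0581 under TMM.

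All 3 paralogs of Rab5, the GTPase of early endosome fusion, were listed: Rab5a had 4028 and 3437 normalized counts in libraries WT 1 and WT 2 and 2523 and 2387 in Lats1/2iΔLgr5 1 and Lats1/2iΔLgr5 2, Rab5b was at 4635 and 4729 in WT and 3436 and 3373 in Lats1/2iΔLgr5 and Rab5c was at 6085 and 7760.2 in WT and 4667 and 4604 in Lats1/2iΔLgr5. The fall of each was between 1.38-fold and 1.52-fold. Rab9 (chromosome X, 166457253 to 166479867), which returns receptors from late endosomes to the Golgi, was at 2920.1 and 3302 in WT and 1534 and 1292 in Lats1/2iΔLgr5, 2.20-fold higher in WT (adjusted p 2.3e-07, the authors' deposited table). Rab21, an endosomal GTPase that binds integrins, was at 2462 and 2924 in WT and 1560.0 and 1539 in Lats1/2iΔLgr5. Rab7, the GTPase of late endosomes and lysosomes, fell 1.38-fold, and the endosomal Rab14 and Rab22a 1.38-fold and 1.37-fold. Under TMM, edgeR's adjusted p was 0.00852 for Rab9 and 0.0347 for Rab21. Rab5a, Rab5b, Rab5c, Rab7, Rab14 and Rab22a did not pass there, with adjusted p from 0.178 (Rab5a) to 0.548 (Rab22a) by edgeR.

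Rab1a and Rab2a, which act between the ER and the Golgi, fell 1.47-fold and 1.43-fold, and Rab6a, of transport within the Golgi, fell 1.35-fold. None of these 3 passed under TMM (edgeR adjusted p 0.181, 0.322 and 0.573). The exons of Rab6a share 19.0% of their bases with Mrpl48 on the opposite strand. Rab10, of surface delivery, and Rab40c, a Rab with a ubiquitin ligase adaptor domain, fell 1.40-fold and 1.54-fold. Rab26os rose from 51.7 and 40.8 to 170.2 and 137.6 normalized counts. It is an antisense RNA and no Rab. Of its exon bases 15.7% are shared with Snord60 on the same strand, so use of strand would not separate their reads. No exon bases shared with a gene on the opposite strand were found. The part of Snord60 reads in its counts was not tested.

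Promoter sequence is shown for the 3 Rab genes whose window holds an E-box and for a COPII gene whose window holds the XBP1 element. RefSeq start-site windows (GRCm38.p6, 250 bases before to 50 after) were found for 60 of the 78 symbols, 69 windows in all. Several elements were searched on both strands in these windows and in all 32851 RefSeq windows, which were not restricted to listed genes. CACGTG, the E-box that is also the core of the TFEB and MYC sites, was in 8 of 69 member windows (11.6%) and in 7.15% of all windows. GGAATG, the TEAD element, was in 14 (20.3%) against 14.7%, and TGACGTG, of XBP1 and the CREB3 family, was in 3 (4.35%) against 2.01%. The ER stress element, CCAAT and CCACG with 9 bases between them, was in none, against 0.119% of all windows. Overlapping windows of 1 gene hold the same letters more than once, and a match is no evidence of binding. Stretches around the first match are printed 5′ to 3′ on the gene's strand, with every match to a searched element, on either strand, in capitals. The Rab27a stretch lies inside the gene, which begins at 73044854, so its start site is an internal one. Use of that site in this tissue was not tested. The E-box starts 30 bases before the start site in Rab21, 235 in Rab5a and 246 in Rab27a, the Rab5a stretch also holds the TEAD element on the other strand, and the XBP1 element starts 6 bases after the start site in Sec23a:
Rab21 (chr10:115315562-115315681, minus strand): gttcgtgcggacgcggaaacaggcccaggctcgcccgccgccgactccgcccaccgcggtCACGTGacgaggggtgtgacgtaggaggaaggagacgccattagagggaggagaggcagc
Rab5a (chr17:53478984-53479064, plus strand): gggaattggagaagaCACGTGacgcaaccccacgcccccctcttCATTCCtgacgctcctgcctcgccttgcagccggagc
Rab27a (chr9:73063898-73063967, plus strand): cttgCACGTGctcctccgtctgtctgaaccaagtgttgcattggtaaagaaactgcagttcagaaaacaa
Sec23a (chr12:59011988-59012071, minus strand): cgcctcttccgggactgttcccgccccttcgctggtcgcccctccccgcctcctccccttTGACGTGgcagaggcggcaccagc

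These 4 genes had ratios of WT to Lats1/2iΔLgr5 of 1.74 (Rab21), 1.52 (Rab5a), 1.80 (Rab27a) and 1.68 (Sec23a).

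Rab regulators of the TBC1D family, which speed GTP hydrolysis by Rabs, split. Tbc1d20, a GAP of RAB1, had 2818 and 2935 normalized counts in libraries WT 1 and WT 2 and 2159 and 1851 in Lats1/2iΔLgr5 1 and Lats1/2iΔLgr5 2, and Tbc1d10b was at 2265 and 3275 in WT and 1579 and 1819.5 in Lats1/2iΔLgr5; both fell. WT 2 was the high library for Tbc1d10b, whose log2 fold change of -0.70 was -0.41 without WT 2. Tbc1d31, a TBC-domain protein of the centrosome, rose by 1.58 ± 0.38 (log2, SE), from 54.3 and 81.6 to 233.6 and 174.3. The 3 genes are 3 of 30 annotated in the family.

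SNARE genes, whose products pull vesicle and target membranes together, had 9 of 38 listed. All 9 fell, beside 57.1% of all rows, and were below 0 under each scaling tried. By base mean they lie in the second to highest quartiles, where 34.7% to 93.0% of rows were lower. None passed under TMM in edgeR, where 18.2% of all rows passed lower. Stx19, an epithelial syntaxin without a membrane anchor, had 1618 and 1579 normalized counts in libraries WT 1 and WT 2 and 1029 and 930.9 in Lats1/2iΔLgr5 1 and Lats1/2iΔLgr5 2, a log2 fold change of -0.71 ± 0.15 (SE). Stx7 and Stx8, partners in late endosome fusion, were at 5346 and 5613 in WT and 3775 and 3594 in Lats1/2iΔLgr5 and at 1309 and 1293 in WT and 835.7 and 831.6 in Lats1/2iΔLgr5. Replicates of Stx8 were nearly equal, and its fall of 1.56-fold far exceeded their spread. Stx12, of recycling endosomes, fell 1.54-fold and Stx3, the apical plasma membrane syntaxin, 1.40-fold.

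Among the other SNAREs, Vamp3 acts in endosomal recycling, Vamp8 in granule exocytosis and lysosome fusion, Snap29 in lysosome fusion and Sec22b between the ER and the Golgi. Vamp3, Snap29 and Sec22b fell 1.47-fold, 1.44-fold and 1.54-fold. Vamp8 fell 1.56-fold, and its log2 fold change of -0.64 was -0.41 without WT 2.

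Exocyst and synaptotagmin genes had 4 of 29 listed, all lower, beside 57.1% of all rows. Syt16, a synaptotagmin that lacks calcium-binding residues, had 4535 and 4615 normalized counts in libraries WT 1 and WT 2 and 2513 and 2741 in Lats1/2iΔLgr5 1 and Lats1/2iΔLgr5 2, 1.74-fold higher in WT, and passed under TMM (edgeR adjusted p of 0.0214). Exoc5, a core subunit of the exocyst tether, was at 3714 and 3567 in WT and 2226 and 2528 in Lats1/2iΔLgr5 and was the only 1 of 8 exocyst subunits listed. Exoc3l2, a gene related to the subunit Exoc3, was low, at 122.4 and 127.9 in WT and 57.9 and 40.6 in Lats1/2iΔLgr5. Syt7, a calcium sensor of lysosome and granule exocytosis, was at 936.4 and 558.1 in WT and 402.0 and 426.0 in Lats1/2iΔLgr5. WT 1 was far above WT 2 for Syt7, and its log2 fold change of -0.85 was -0.43 without WT 1.

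Of the adaptor complexes only AP-3 genes were listed. AP-3 sorts cargo from endosomes to lysosomes and related organelles. Its small subunit gene Ap3s1 had 4005 and 3562 normalized counts in libraries WT 1 and WT 2 and 2272 and 1927 in Lats1/2iΔLgr5 1 and Lats1/2iΔLgr5 2, and its large subunit gene Ap3b1 was at 3084 and 3828 in WT and 2463 and 2153 in Lats1/2iΔLgr5. Both fell, with -0.85 ± 0.15 and -0.58 ± 0.17 as log2 fold changes (SE), and Ap3s1 passed under TMM (edgeR adjusted p of 0.0331). Ap3b2, which encodes the neuronal form of the large subunit, rose from 17.7 and 33.1 to 103.2 in both Lats1/2iΔLgr5 libraries, a log2 fold change of 2.01 ± 0.48 (SE). Per kilobase of exon the 2 large subunit genes remained far apart in Lats1/2iΔLgr5, at 507.5 ± 48.1 for Ap3b1 and 16.4 ± 0.00552 for Ap3b2 (normalized counts per kb, SD, n = 2). The pseudogene Ap3s1-ps1 was at 188.0 and 184.2 in WT and 99.6 and 78.9 in Lats1/2iΔLgr5; it is a copy of Ap3s1, between which the counting could divide reads, and is uncertain.

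Sorting nexins, phosphoinositide-binding proteins of endosomes, had 3 of 30 listed, all lower, beside 57.1% of all rows. By base mean they lie in the second to highest quartiles, where 34.7% to 93.0% of rows were lower. Snx13 (chromosome 12, 35047189 to 35147469), which also carries an RGS domain, had 5458 and 5446 normalized counts in libraries WT 1 and WT 2 and 3119 and 3047 in Lats1/2iΔLgr5 1 and Lats1/2iΔLgr5 2. Replicates of each group were close, and the fall was 1.77-fold (adjusted p 3.36e-07 in the authors' deposited table). Snx3, which works with retromer to return receptors to the Golgi, was at 4074 and 4169 in WT and 3013 and 2371 in Lats1/2iΔLgr5, and the retromer subunit gene Vps26a was at 2997 and 3339.7 in WT and 2063 and 1969.6 in Lats1/2iΔLgr5. Snx15 was at 1036 and 1079 in WT and 775.9 and 749.5 in Lats1/2iΔLgr5.

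Of 10 annotated CHMP genes, which encode the ESCRT-III filaments that close vesicles into multivesicular endosomes, 5 were listed. All 5 fell, beside 57.1% of all rows, and were below 0 under each scaling tried. All 5 lie in the highest quartile of base mean, where 93.0% of rows were lower. Chmp4c (chromosome 3, 10366907 to 10428856) had 7666 and 9581 normalized counts in libraries WT 1 and WT 2 and 4703 and 5021 in Lats1/2iΔLgr5 1 and Lats1/2iΔLgr5 2, 1.77-fold higher in WT. Chmp4b, its paralog, had a ratio of 1.38, and Chmp2a, Chmp3 and Chmp5 ratios of 1.43, 1.36 and 1.66. Vps4b, the ATPase that takes ESCRT-III apart, was at 6479 and 6527 in WT and 4402 and 4582 in Lats1/2iΔLgr5. Vps13d, a lipid transfer protein at organelle contacts, fell 1.56-fold.

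Other genes of these routes came from 7 lists of 284 symbols that the naming rule does not cover. The authors' deposited table holds 56 of them, 54 lower and 2 higher, beside 57.1% of all rows lower and 85.7% of the rows in the upper 2 quartiles of base mean. Their median base mean was 3563. Their median edgeR log2 fold change was -0.58. Under TMM 4 of them passed lower and 2 higher, beside 18.2% and 42.8% of all rows. Sar1b, the GTPase that starts COPII assembly, had 2523 and 2954 normalized counts in libraries WT 1 and WT 2 and 1638 and 1398 in Lats1/2iΔLgr5 1 and Lats1/2iΔLgr5 2, and its exchange factor Preb fell 1.53-fold. Gcc2, a trans-Golgi golgin, was at 6483 and 6547 in WT and 4158 and 3541 in Lats1/2iΔLgr5, and Uso1, the p115 tether, fell 1.58-fold. Of ER to Golgi and Golgi genes 14 of 47 were listed and all were lower, the others being Yipf1, Yipf5, Yipf6, Blzf1, Tango2, Arcn1, Golph3, Cnih4, Acbd3 and Bet1.

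ER entry and folding genes had 9 of 40 listed, all lower, beside 57.1% of all rows. All 9 lie in the upper 2 quartiles of base mean, where 85.7% of rows were lower. Tram1, which helps chains into the translocon, had 11991 and 10076 normalized counts in libraries WT 1 and WT 2 and 7113 and 6428 in Lats1/2iΔLgr5 1 and Lats1/2iΔLgr5 2, and the disulfide isomerase gene Pdia3 was at 36488 and 33784 in WT and 25542 and 21638 in Lats1/2iΔLgr5. Dnajb9, an ER co-chaperone, was at 2282 and 2605 in WT and 1551 and 917.6 in Lats1/2iΔLgr5, with Lats1/2iΔLgr5 2 the lowest. The rest were Dad1, Rpn1 and Ostc of the oligosaccharyltransferase and Derl2, Dnajc3 and Sel1l of folding and disposal. Among 18 transcription factor genes linked to secretory cells 3 were listed and fell. Atf4, of the integrated stress response, was at 8333 and 8427 in WT and 4830.4 and 5251 in Lats1/2iΔLgr5, Foxa3 at 4056 and 4998 in WT and 2938 and 2492 in Lats1/2iΔLgr5 and Creb3l3, an ER-bound factor, at 870.7 and 2226 in WT and 679.1 and 407.2 in Lats1/2iΔLgr5, where WT 2 stood far above WT 1.

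Endocytic genes had 11 of 45 listed, 9 lower and 2 higher. Epn3, an epithelial epsin of clathrin pits, had 6447 and 9962 normalized counts in libraries WT 1 and WT 2 and 3399 and 3536 in Lats1/2iΔLgr5 1 and Lats1/2iΔLgr5 2, and the endophilin gene Sh3gl2 and the clathrin assembly gene Picalm fell 1.66-fold and 1.45-fold. Cltc, the clathrin heavy chain gene, and Aak1, Ston2, Gak, Sorl1 and Dnm2 also fell. The 2 that rose were Cavin1, a caveolar coat gene, at 2608 and 1819.8 in WT and 3289 and 5195 in Lats1/2iΔLgr5, and the endocytic adaptor gene Ston1, at 95.9 and 109.2 in WT and 172.9 and 260.3 in Lats1/2iΔLgr5.

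The listed genes of the remaining lists were all lower, apart from Rala at 0.018 (log2) on DESeq2 factors from the listed rows. Of 54 endosome and lysosome genes 7 were listed: Ist1, of ESCRT-III, fell (log2 fold change -0.59), Stam2 and Tsg101, which bring ubiquitinated cargo to ESCRT, fell 1.58-fold and 1.38-fold, and Cd63, Lamp1, Ankfy1 and Mtm1 fell too. Of 47 SNARE and Rab machinery genes 6 were listed, Dennd1b (1.69-fold), the Rab recycling gene Gdi2 (1.48-fold), Dennd2d (1.53-fold), Dennd4c, Mon1a and Madd. Of 33 regulated exocytosis genes 6 were listed, Mlph, Myo1a, Myo5c, Ehd4, Marcks and Rala, with Myo1a at 12604 and 15644 in WT and 9224 and 8697 in Lats1/2iΔLgr5.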

How the data were processed

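The submitters' processing notes name the build GRCm38 and the tools TopHat2 (2.1.1), HTSeq and DESeq2. Their settings, strand included, were not given in the sources used here. Raw counts per gene and library were deposited by the authors. The same table carries, per the file headers, the authors' base mean (a signal: normalized counts averaged over the libraries), log2 fold change with standard error, Wald statistic (a score), p-value and adjusted p-value. The ratio of adjusted to raw p placed the tested genes at 13137.

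The authors' size factors (0.792, 0.907, 1.10 and 1.28) were recovered from base means, which they rebuild within 0.0119%. edgeR 4.0.16 was fitted to all 2701 rows on these factors with genotype as the one factor, no low-count filter, and Benjamini-Hochberg adjustment. In the text, rose and fell follow the authors' calls. Neither these nor the edgeR calls are independent of the selection of rows. TMM, DESeq2 1.42.0 size factors, filterByExpr, DESeq2's Wald test, a replicate block and single-library omission were alternatives. The fit was also run on simulated counts in which most genes were unchanged and the size factors were known. The real rows are all called genes and their scaling is in doubt, so that run does not bear on the scaling.

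GENCODE M21 gave symbols for 2698 rows and exon lengths; 1 was added to deposited starts, which lie 1 base below GENCODE's in 2214 rows. Members, role groups and lists were chosen with earlier results of these data known. Library values are given for up to 3 members per role group and direction with the smallest deposited adjusted p and for families that split; those of Rab27b, Sytl2, Rab3d, Rab5a, Rab5b, Rab5c, Rab21, Arl14, Syt7, Tbc1d20, Tbc1d10b and genes of the other lists were chosen after their values were seen. Protein sequences were not used here.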

Additional observations from a re-analysis of the deposited data

How the results depend on the processing

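Scaling moved the medians most, and leaving out 1 library moved the calls most. Under TMM scaling 11 trafficking genes passed lower in place of 73, beside 18.2% of all rows in place of 57.1%. The median log2 fold change of the trafficking genes was -0.24 in place of -0.60. Of the other pathway genes 4 passed lower in place of 54, with a median of -0.22 in place of -0.58. Under DESeq2 size factors from the listed rows the values were 9 and -0.20, and 3 and -0.17, beside 16.0% of all rows passing lower. There Ssr1 (0.0030), Kdelr1 (0.022), Arf4 (0.024) and Vps54 (0.018) moved just above 0. These factors take most listed rows as unchanged, which a table of called genes is not. Each fit without 1 library leaves 1 library in a group. Its counts of passing genes therefore cannot set the trafficking genes apart from other rows. Over all rows the median log2 fold change in these fits ran from -0.51 to -0.44. Without 1 library in turn, 0 to 60 trafficking genes passed lower and 0 to 4 higher, with medians from -0.61 to -0.53; for the other pathway genes these were 0 to 44, 0 to 2 and -0.60 to -0.54. The 0 is without Lats1/2iΔLgr5 2 (edgeR). A lone library is assumed to vary like the other group. With a replicate block 66 passed lower and 5 higher (1452 and 1086 of all rows), losing Rab22a, Arf4, Trappc8, Kdelr1, Sec24a, Snx15 and Vps54. The numbers share no stated source: deviations of same-numbered libraries correlated at -0.185 over 2664 genes. The crossed pairing, added after the data were seen, gave 73 and 4 (1519 and 1142 of all rows). filterByExpr and DESeq2's Wald test gave 73 and 5 (1541 and 1157, and 1543 and 1157, of all rows). The 76 protein-coding members alone gave 72 and 4. The effect of depth was not tested; Ap3b2, Exoc3l2, Rab26os, Tbc1d31, Ap3s1-ps1 and Tmed1 had the lowest base means, up to 144.8.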

Other observations

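Levels of the trafficking genes could be set side by side only per length of exon. In WT the highest was Arf1, at 10250.4 ± 649.7 normalized counts per kilobase (SD, n = 2), followed by Arl14 at 7193 ± 2485 and Arf6 at 6978 ± 472.0. Arl14 and Arf6 did not differ beyond their spread. Chmp2a and Rab27a came next, at 5425 ± 669.6 and 5330.3 ± 196.7, also within their spread, ahead of Rab1a at 4654 ± 289.0. Rab27a therefore stood above the housekeeping Rabs Rab1a, Rab2a (4080.1 ± 372.0) and Rab5c (3155 ± 539.9) in WT by this measure, while in Lats1/2iΔLgr5 it was at 2957 ± 10.8 and Rab1a at 3176 ± 95.5. Rab27b, with a longer annotated exon set, was at 1892 ± 148.3 in WT. The lowest were Ap3b2, Tbc1d31 and Arl4c, at 4.03 ± 1.73, 10.7 ± 3.04 and 25.4 ± 7.57, and these 3 rose. Exon length is the union of annotated exons, so a long annotated untranslated part that the tissue does not use lowers a gene's value.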
